A study of Homo sapiens with 6 samples.

Results

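The epithelial-mesenchymal transition (EMT) genes described here are 10 markers and drivers, CDH1, CDH2, EPCAM, VIM, FN1, SNAI1, SNAI2, TWIST1, ZEB1 and ZEB2, which were taken by symbol from a table of 37887 rows. All 10 had a row, and 9 of them were among the 15450 genes that passed the filter on low counts. EPCAM did not pass.

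RNA-seq had been performed on BT-549 cells, an established triple-negative breast cancer line with a mesenchymal phenotype, in 2 groups of 3 libraries. The control libraries, called shCTL, are titled as control shRNA and labelled as treated with 0.1% DMSO. The shPBRM1 libraries come from cells stably carrying a tet-inducible PBRM1 shRNA and are labelled as treated with 500 ng/ml doxycycline (DOX). What DOX does and what the silencing does therefore cannot be told apart by these labels. Whether the controls carry a control shRNA or the uninduced PBRM1 shRNA was not settled by the labels. In its chromatin accessibility assays the paper compares PBRM1 shRNA cells with control shRNA cells, which does not settle it for these libraries. A single PBRM1 shRNA was profiled in 1 cell line, and the time of DOX exposure of these libraries is not given in the labels. The cells were cultured in triplicate, so the p-values measure the spread between these cultures. In the count table the shPBRM1 columns are named as such, whereas the 3 control columns give the cell line and a number only and were taken as shCTL because they lack the shPBRM1 name; every shCTL value rests on this assignment. PBRM1 encodes a protein with several bromodomains, which bind acetylated histones, and belongs to PBAF, a SWI/SNF-type chromatin remodeler, and the comparison asks which transcripts depend on it.

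In EMT, epithelial cells lose the adherens junctions built on E-cadherin and acquire N-cadherin, vimentin filaments and a fibronectin matrix. Transcription factors of the SNAIL, TWIST and ZEB families drive the change. SNAIL and ZEB proteins bind E-box sequences in the promoters of CDH1 and other epithelial genes and recruit repressors, whereas TWIST1 is a basic helix-loop-helix factor that also acts on E-boxes. Mesenchymal breast cancer lines are known for high VIM and ZEB1 and for little or no CDH1.

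Total counts were between 36429395 and 65096297 per library, so that 3 counts, the floor used here, corresponded to 0.0471 to 0.0804 CPM, the counts scaled to the TMM-normalized library size. The first shPBRM1 library stood apart from the other 2 of its group, since the chi-square of its counts against theirs, divided by the degrees of freedom, was 21.5 and 24.9, beside 4.92 to 7.35 for the other pairs within a group. Without it the same counts of members passed, 2 with the fold minimum and 8 without. PBRM1 itself was at 157, 157 and 161 CPM in shCTL and at 43.3, 40.9 and 41.7 CPM in shPBRM1, or 26.5% of the control mean. On the opposite strand the PBRM1 gene span, introns included, overlaps that of SMIM4 over 33886 bases and that of GNL3 over 4762 bases. The merged exons of PBRM1 cover 9654 bases, and the overlap of exons was not measured. In raw counts, not scaled to library size, GNL3 had 6806, 9096 and 9562 in shCTL and 8837, 5785 and 9680 in shPBRM1. SMIM4 had 346, 383 and 464 in shCTL and 756, 431 and 731 in shPBRM1. PBRM1 had 5870, 7619 and 8118 in shCTL and 2598, 1591 and 2657 in shPBRM1. Whether the counting used strand is not given, so reads in the shared parts may not be told apart. Of the markers of other cells, ESR1 was at 0 counts in the shCTL libraries and at 0, 2 and 0 counts in shPBRM1, and CD3E was at 0 in all 6. The summed level of 3 basal epithelial markers was 4.69 to 5.09 CPM in shCTL and 1.73 to 2.62 CPM in shPBRM1, most of it TP63, which fell. The summed levels were 51.1 to 52.8 and 50.02 to 50.97 CPM for 5 hormone receptor and luminal markers, nearly all ERBB2, 0.938 to 1.30 and 0.784 to 0.848 CPM for 3 blood cell markers and 0.188 to 0.496 and 0.0257 to 0.0941 CPM for 3 endothelial markers. The blood cell sum hides opposite changes, since PTPRC fell from 0.797 to 0.132 CPM and CD14 rose from 0.331 to 0.678 CPM, or to 16.6% and 205% of the control, and both were called. The 5 mesenchymal line markers, VIM and FN1 among them, summed to 5947 to 6195 CPM in shCTL and to 5338 to 5696 CPM in shPBRM1. Most of this sum was SPARC, which fell from 3893 to 3021 CPM, whereas VIM, AXL and MSN rose to 124%, 137% and 150% of the control. The part of these levels in the results was not tested. In bulk RNA, fewer cells of a type and less RNA per cell cannot be told apart.

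A change was tested with edgeR's quasi-likelihood test. Genes are said to have risen or fallen when the Benjamini-Hochberg adjusted p over all 15450 genes was under 0.05, and are called changed when the fold change was also over 2. All log2 changes are shPBRM1 minus shCTL. Each standard error (SE) is that of the difference of group means of log2 CPM and not of the fitted change. Among the 9 tested EMT genes, CDH1 and FN1 were called, both lower, and 0 were called higher. CDH2, VIM and TWIST1 rose by less than 2-fold, SNAI2, ZEB1 and ZEB2 fell by less than 2-fold, and SNAI1 did not pass. Over all tested genes 12.6% were called, 2.87% higher and 9.68% lower, and 64.7% passed without the fold minimum, 31.5% higher and 33.2% lower. For 8 of the 9 members the 2 groups of libraries did not overlap, which was also the case for 68.3% of all tested genes. The median log2 change of the 9 genes was -0.55, beside -0.0080 over all tested genes. The directions were thus mixed with respect to EMT: of the mesenchymal genes 2 rose and 1 fell, of the transcription factors 1 rose and 3 fell, and the epithelial marker CDH1 fell with ZEB1, ZEB2 and SNAI2.

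**Figure D1:**
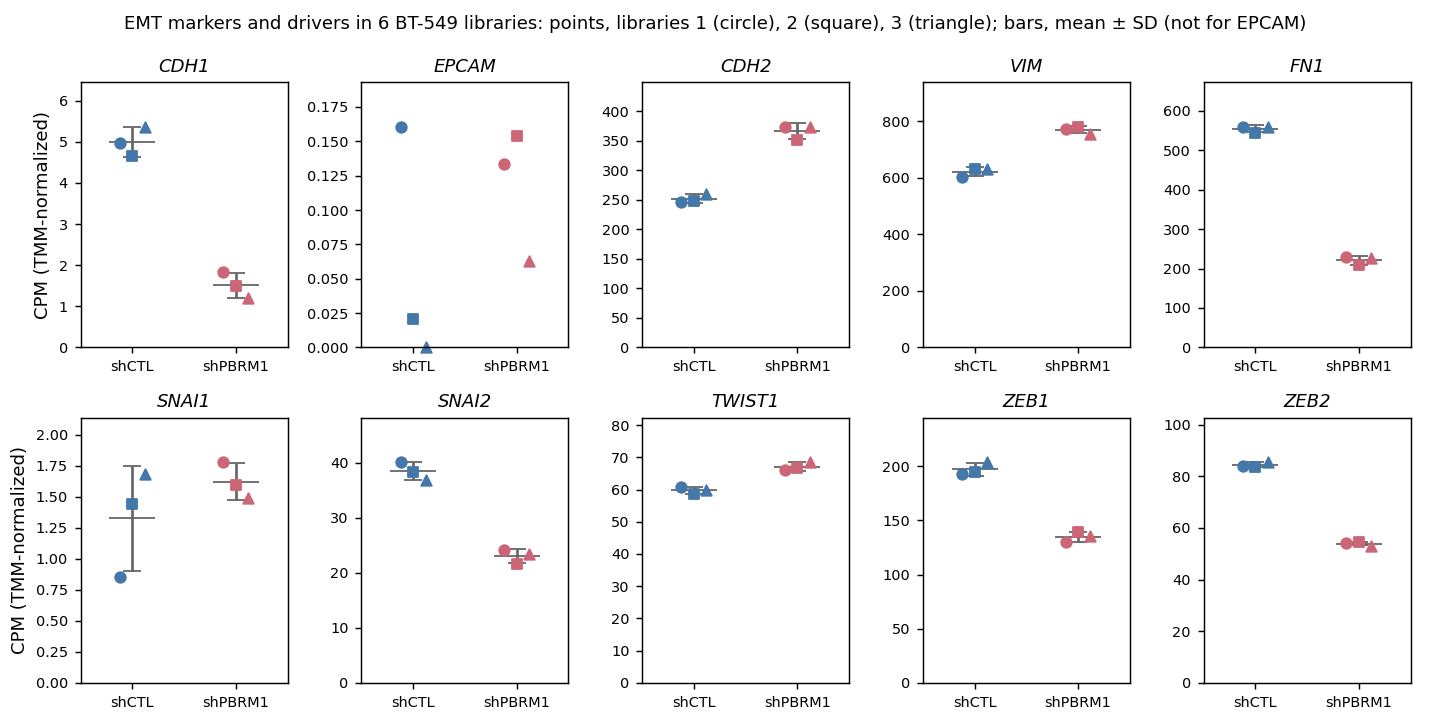
Levels of the 10 EMT genes in CPM (linear axes from 0), with 3 shCTL libraries in blue and 3 shPBRM1 libraries in red, marked by library number; bars give the mean and SD, which are left out for EPCAM. CDH1, FN1, SNAI2, ZEB1 and ZEB2 are lower and CDH2, VIM and TWIST1 higher in every shPBRM1 library than in any shCTL library, whereas the groups overlap for EPCAM and SNAI1.

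Since ZEB1 and ZEB2 fell together, 3 of their promoter windows are shown, each of them a window that holds a motif marked below. RefSeq windows from 250 bases before to 50 bases after each transcription start, on GRCh38.p14, were at hand for 5 of the 10 members, namely CDH2, VIM, FN1, ZEB1 and ZEB2, and gave 12 windows, 7 of them at alternative starts of ZEB1. The 3 windows that follow run 5′ to 3′ along the gene, with 2 kinds of motif in capitals: the E-box that SNAIL and ZEB proteins bind (CACCTG, or CAGGTG on the other strand), and the interferon-stimulated type of repeat that IRF proteins bind (GAAA, any 2 bases and GAAA again, or TTTC, any 2 bases and TTTC on the other strand).
ZEB1, chr10:31318966-31319265, plus strand: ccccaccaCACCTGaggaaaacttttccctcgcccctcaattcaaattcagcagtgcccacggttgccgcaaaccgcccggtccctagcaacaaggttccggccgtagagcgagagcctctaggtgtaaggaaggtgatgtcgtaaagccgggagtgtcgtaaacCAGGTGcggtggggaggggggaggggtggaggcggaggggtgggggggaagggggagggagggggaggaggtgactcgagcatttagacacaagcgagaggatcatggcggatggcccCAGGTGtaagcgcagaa
ZEB1, chr10:31320304-31320603, plus strand: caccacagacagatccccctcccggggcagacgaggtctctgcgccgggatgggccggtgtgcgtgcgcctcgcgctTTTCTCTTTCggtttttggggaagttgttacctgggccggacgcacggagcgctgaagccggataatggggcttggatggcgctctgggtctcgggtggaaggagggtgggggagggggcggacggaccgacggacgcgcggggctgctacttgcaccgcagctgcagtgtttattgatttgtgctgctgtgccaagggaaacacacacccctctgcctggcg
ZEB2, chr2:144520070-144520369, minus strand: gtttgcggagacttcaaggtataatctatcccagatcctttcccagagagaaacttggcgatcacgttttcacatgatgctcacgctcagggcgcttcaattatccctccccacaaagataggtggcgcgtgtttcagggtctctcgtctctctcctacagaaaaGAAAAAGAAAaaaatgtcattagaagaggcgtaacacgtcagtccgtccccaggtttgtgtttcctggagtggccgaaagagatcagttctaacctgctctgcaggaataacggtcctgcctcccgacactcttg

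The ZEB1 window at 31318966 held the E-box at 3 places, beginning at -242, -85 and 34 from the start site. A further ZEB1 window, at 31318167, held it once, at -57, and is not shown. Also not shown are the ZEB1 windows at 31318568, 31319518, 31320951 and 31321410, which held neither marked motif. Thus 2 of the 12 windows, both of ZEB1, contained CACCTG or CAGGTG, compared with 20.6% of all 35116 promoter windows of this length. The general E-box CANNTG, of which CACCTG is a special case, was in 6 of 12 windows and in 68.7% of all windows. The interferon-type repeat was in 2 of 12 windows, once in ZEB1 at -173 and once in ZEB2 at -85, and in 3.57% of all windows. TTCNNNGAA, the palindrome that STAT proteins bind, was in 0 of 12 windows and in 7.66% of all windows. Because 7 of the 12 windows are starts of the same gene, ZEB1, the windows are not independent, and the shares were not tested. These are matches of letters in a window and not measured binding sites.

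CDH1 encodes E-cadherin, the adhesion protein of epithelial adherens junctions. The gene lies on the plus strand of chromosome 16 from 68737225 to 68835548 in GENCODE v29 (GRCh38), the annotation used for every position of a gene given here. CDH1 was at 4.98, 4.65 and 5.37 CPM in the shCTL libraries and at 1.83, 1.49 and 1.21 CPM in the shPBRM1 libraries. It was already low in the controls, and every shPBRM1 library was below every control. The mean went from 5.0 ± 0.363 to 1.51 ± 0.313 CPM (SD, n = 3 each), or 30.2% of the control, a log2 change of -1.73 (SE 0.18; adjusted p = 9.58e-10, edgeR). Of all tested genes 5.07% had a larger absolute change. The raw counts behind these levels were 186, 226 and 271 against 110, 58 and 77, well above the floor.

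EPCAM, an epithelial surface adhesion molecule on the plus strand of chromosome 2 from 47345158 to 47387601, had 6, 1 and 0 counts in shCTL and 8, 6 and 4 counts in shPBRM1. The groups overlapped, and the levels, 0.161, 0.0206 and 0 CPM against 0.133, 0.154 and 0.0628 CPM, were close to the floor. An exact two-sided permutation test gave p = 0.4, where 3 against 3 libraries cannot go below 0.1. Fitted without the filter on low counts, the log2 change was 1.03 with an adjusted p of 0.455 in edgeR. A difference in EPCAM was not detectable at this depth.

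CDH2 encodes N-cadherin, which replaces E-cadherin at junctions of mesenchymal cells, and lies on the minus strand of chromosome 18 from 27950966 to 28177446. Its level was 247, 249 and 260 CPM in shCTL and 374, 352 and 374 CPM in shPBRM1. All shPBRM1 libraries were above all controls, with means of 252 ± 7.04 and 366 ± 12.8 CPM, a 1.45-fold rise. The log2 change was 0.54 (SE 0.037; adjusted p = 4.65e-11, edgeR), and 32.2% of tested genes changed more.

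VIM encodes the intermediate filament protein vimentin and lies on the plus strand of chromosome 10 from 17228259 to 17237593. VIM was at 602, 630 and 630 CPM in shCTL and at 773, 781 and 756 CPM in shPBRM1. The groups were separate, but the step was small: the means were 621 ± 15.9 and 770 ± 12.9 CPM, a rise to 124% of the control. The log2 change of 0.31 (SE 0.026; adjusted p = 1.51e-07, edgeR) was exceeded in size by 54.3% of tested genes and lay at the upper edge of the interquartile range of all changes, -0.40 to 0.31.

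FN1 encodes fibronectin, an adhesive protein of the extracellular matrix, and lies on the minus strand of chromosome 2 from 215360440 to 215436172. Unlike CDH2 and VIM, FN1 was lower in shPBRM1, with 558, 544 and 560 CPM in shCTL and 229, 208 and 226 CPM in shPBRM1. Every shPBRM1 library was far below the controls. The mean fell from 554 ± 8.97 to 221 ± 11.5 CPM, to 39.9% of the control, with a log2 change of -1.33 (SE 0.046; adjusted p = 1.05e-17, edgeR), and 8.08% of tested genes changed more.

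Among the transcription factors, ZEB1, a zinc finger and homeobox repressor of CDH1, is annotated on the plus strand of chromosome 10 from 31318495 to 31529814. ZEB1 was at 193, 195 and 204 CPM in shCTL and at 130, 139 and 135 CPM in shPBRM1. The groups were apart, with means of 197 ± 5.98 and 135 ± 4.64 CPM, and shPBRM1 was at 68.3% of the control. The log2 change was -0.55 (SE 0.038; adjusted p = 8.82e-12, edgeR).

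Its paralog ZEB2, on the minus strand of chromosome 2 from 144364364 to 144524583, was at 84.1, 83.8 and 85.6 CPM in shCTL and at 54.1, 54.6 and 53.2 CPM in shPBRM1. The libraries of each group lay very close together and the groups did not overlap. The mean fell from 84.5 ± 0.973 to 54.0 ± 0.725 CPM, to 63.9% of the control, a log2 change of -0.65 (SE 0.015; adjusted p = 1.62e-13, edgeR). Of all tested genes, 31.5% changed more than ZEB1 and 25.2% more than ZEB2.

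Both genes overlap antisense transcripts, and whether the counting used strand is not given in the sources used here. In shared exons, reads of a gene and of its partner may therefore not be told apart. The overlaps that follow are of whole gene spans, introns included, and the overlap of exons was not measured. ZEB1-AS1, which overlaps ZEB1 over 1953 bases, fell as well, from 6.51 ± 0.256 to 3.79 ± 0.342 CPM (log2 change -0.77; adjusted p = 1.45e-06, edgeR). ZEB2-AS1, which overlaps ZEB2 over 3500 bases, had 7, 8 and 6 counts in shCTL and 2, 1 and 3 in shPBRM1, at least 2.71-fold lower against a floor of 3 counts per library. It was below the filter, and in the fit without the filter it did not pass (adjusted p = 0.0882, edgeR). VIM-AS1, which overlaps VIM over 1727 bases, was at 0.464 ± 0.206 and 0.537 ± 0.0378 CPM and did not pass (adjusted p = 0.633, edgeR). Counts of ZEB1-AS1, ZEB2-AS1 and VIM-AS1 were small beside those of ZEB1, ZEB2 and VIM. Further antisense transcripts had no row under their symbol, so their reads could not be assessed. These were AC009951.2 over 5603 bases of ZEB2 and AL133415.1 over 1509 bases of VIM. Likewise without a row were AC099314.1 over 9197 bases of CDH1, AC110015.1 over 9169 bases of CDH2 and AC003986.2 over 1798 bases of TWIST1. FN1, SNAI1 and SNAI2 overlap no other annotated gene.

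SNAI2 encodes SLUG, a zinc finger repressor of the SNAIL family, and is annotated on the minus strand of chromosome 8 from 48917604 to 48921740. Its level was 40.2, 38.4 and 37.0 CPM in shCTL and 24.2, 21.6 and 23.4 CPM in shPBRM1. The groups did not overlap, and SNAI2 fell from 38.5 ± 1.62 to 23.1 ± 1.32 CPM, to 59.9% of the control (log2 change -0.73, SE 0.059; adjusted p = 1.10e-10, edgeR). Its fitted change was larger in size than that of ZEB1 or ZEB2, a difference that was not tested, and 21.1% of tested genes changed more than SNAI2.

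SNAI1, which encodes SNAIL and lies on the plus strand of chromosome 20 from 49982999 to 49988886, was the 1 tested member that did not pass. Its level was 0.857, 1.44 and 1.69 CPM in shCTL and 1.78, 1.59 and 1.49 CPM in shPBRM1, from 32, 70 and 85 counts and 107, 62 and 95 counts. The groups overlapped, and the first control library was lower than the other 5. The means were 1.33 ± 0.425 and 1.62 ± 0.148 CPM, and the log2 change of 0.27 (SE 0.29, adjusted p = 0.301, edgeR) was smaller than this standard error. Between libraries of the same number the log2 difference was 1.02, 0.14 and -0.17, so that the sign was not shared.

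TWIST1, on the minus strand of chromosome 7 from 19020991 to 19117672 as annotated with its longest transcripts, was the transcription factor that rose. TWIST1 was at 60.8, 58.6 and 59.7 CPM in shCTL and at 65.9, 66.5 and 68.6 CPM in shPBRM1. The libraries of the 2 groups did not overlap, but the rise was small, from 59.7 ± 1.10 to 67.0 ± 1.37 CPM, or 1.12-fold (log2 change 0.17, SE 0.023; adjusted p = 4.75e-04, edgeR). It was exceeded in size by 73.9% of tested genes.

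Libraries of the same number deviated together in the 2 groups, although 1 pair of different numbers did so as well. The differences within numbers were alike for most members. They were -1.42, -1.62 and -2.12 for CDH1 on the log2 scale, the widest spread among the genes that passed. For FN1 they were -1.28, -1.39 and -1.31, and for CDH2 0.60, 0.50 and 0.52. The drop of ZEB2, at -0.64, -0.62 and -0.69, was close to that of ZEB1, at -0.57, -0.49 and -0.59, and to that of SNAI2, at -0.73, -0.83 and -0.66. VIM rose by 0.36, 0.31 and 0.26 and TWIST1 by 0.12, 0.18 and 0.20.

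**Figure D2:**
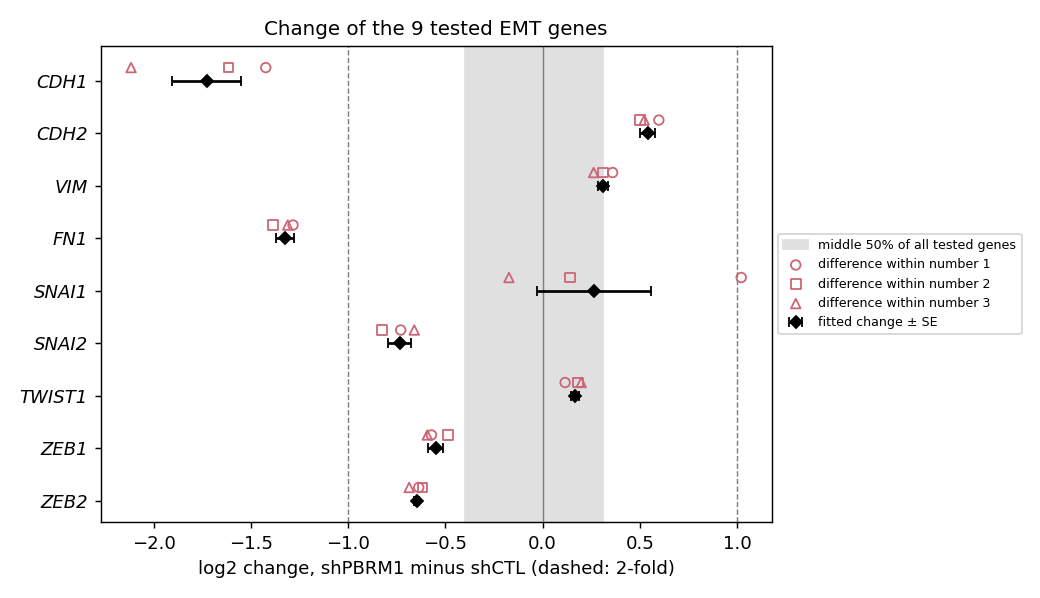
Log2 change of the 9 tested EMT genes (shPBRM1 minus shCTL). Diamonds give the fitted change, and bars the standard error of the difference of group means of log2 CPM. Open symbols give the difference within each library number. Dashed lines mark a 2-fold change, and the grey band is the interquartile range of all tested genes, -0.40 to 0.31. CDH1 and FN1 lie beyond the lower dashed line, VIM, TWIST1 and SNAI1 lie inside or at the edge of the band, and the differences for SNAI1 fall on both sides of 0.

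To compare levels between genes, CPM were divided by the length of each gene's merged exons in kilobases. This length covers all annotated isoforms and so understates genes with many long isoforms, such as ZEB2 and FN1, with 25058 and 17315 bases. In shCTL the order was VIM at 120 CPM per kilobase, CDH2 at 50.9, FN1 at 32.0, TWIST1 at 29.4, ZEB1 at 22.8, SNAI2 at 11.4, ZEB2 at 3.37, CDH1 at 0.810, SNAI1 at 0.787 and EPCAM at 0.0240. Neighbours in this order did not overlap between libraries, other than CDH1 and SNAI1, which cannot be ordered. In shPBRM1 the order was VIM at 149 CPM per kilobase, CDH2 at 74.0, TWIST1 at 33.0, ZEB1 at 15.6, FN1 at 12.8, SNAI2 at 6.80, ZEB2 at 2.15, SNAI1 at 0.962, CDH1 at 0.245 and EPCAM at 0.0463. By this measure FN1 moved from the third to the fifth place, below TWIST1 and ZEB1, and CDH1 came to lie below SNAI1. Without division by length, FN1 in shPBRM1 was at 221 CPM, above ZEB1 at 135 and TWIST1 at 67.0 CPM. The place of FN1 among these genes therefore depends on the exon length used.

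The ratio of CDH2 to CDH1 per length, which describes the cadherin balance within a library, was 61.9, 66.8 and 60.4 in shCTL and 255, 295 and 386 in shPBRM1, with means of 63.0 and 312. Every shPBRM1 library had the higher ratio, from both a lower CDH1 and a higher CDH2. The ratio of VIM to FN1 was 3.62, 3.89 and 3.78 in shCTL and 11.3, 12.6 and 11.2 in shPBRM1. Within the families, ZEB1 over ZEB2 stayed between 6.65 and 6.90 in shCTL and between 6.96 and 7.37 in shPBRM1, while SNAI2 over SNAI1 was 23.3, 13.3 and 10.9 against 6.75, 6.75 and 7.80. These ratios are given as a description, with no test.

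**Figure D3:**
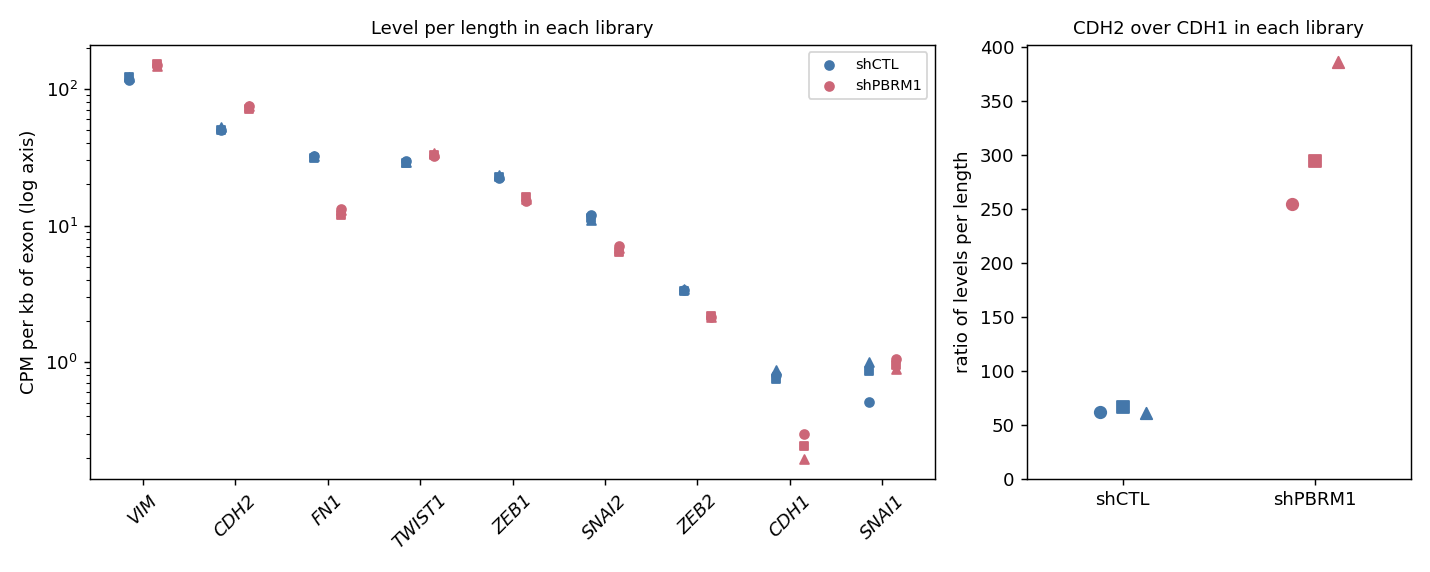
Left, levels of 9 EMT genes (EPCAM left out) in CPM per kilobase of exon on a log axis for 3 shCTL (blue) and 3 shPBRM1 (red) libraries; right, the ratio of CDH2 to CDH1 per length in each library on a linear axis from 0. VIM is the highest in all libraries, and FN1 drops below TWIST1 and ZEB1 in shPBRM1 by this measure, which depends on the exon length used. The ratio goes from 60.4 to 66.8 in shCTL to 255 to 386 in shPBRM1.

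By the centred log2 CPM over the 6 libraries, the genes most like CDH1 among the 12505 tested genes averaging 50 counts or more were EPHA7, an ephrin receptor, GFOD1 and N4BP2L1, with root mean square differences of 0.0844, 0.0989 and 0.101. Their log2 changes were -1.75, -1.75 and -1.80, which lie near that of CDH1 because the genes were picked on the same libraries. Other cadherins were not called. CDH3, which encodes P-cadherin and neighbours CDH1 on chromosome 16, was at 137 ± 3.43 CPM in shCTL and 143 ± 3.88 CPM in shPBRM1 (log2 change 0.06; adjusted p = 0.173, edgeR). Of the 21 other cadherins in the table, 7 were tested, and 2 of them, CDH11 and CDH24, rose and 3, CDH6, CDH13 and CDH18, fell by less than 2-fold. Thus 0 were called by edgeR, beside 12.6% of all tested genes, with 5 at an unadjusted p under 0.05. DESeq2 called 2, CDH10 and CDH18. CDH18 lay at the edge of the threshold in edgeR, with a fitted log2 change of -0.998 and a mean at 49.0% of the control. CDH10 had 0 counts in each shCTL library and 6 in each shPBRM1 library, at least 1.73-fold higher against the floor of 3 counts per library. These cadherins were named after their values were seen.

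Wider lists of genes that go with EMT, without the 10 members, were counted in the same fit; CDH3 and CDH11 are in 2 of these lists. The table held 34 epithelial junction and surface genes, of which 23 were tested, and 5 were called, 2 higher and 3 lower, or 21.7% beside 12.6% of all tested genes. Without the fold minimum 9 rose, 9 fell and 5 did not pass, with a median log2 change of 0.11. Over all tested genes 31.5% rose and 33.2% fell. DSP, which encodes the desmosomal plaque protein desmoplakin, fell most, from 7.91 ± 0.403 to 0.722 ± 0.271 CPM (log2 change -3.41; adjusted p = 2.19e-14, edgeR). The tight junction genes CLDN4 and CLDN7 fell from 5.19 ± 0.293 to 2.01 ± 0.539 CPM and from 1.47 ± 0.381 to 0.626 ± 0.0927 CPM. In contrast, MAL2, a protein of apical transport, rose from 3.05 ± 0.165 to 8.32 ± 0.426 CPM, and AP1M2, an epithelial clathrin adaptor subunit, rose from 0.966 ± 0.245 to 2.50 ± 0.796 CPM. The epithelial genes thus did not share 1 direction. With a test against a 2-fold change (glmTreat), 3 of the 5, CLDN4, DSP and MAL2, were called. CLDN7 was not called without shCTL replicate 1 and was not tested at a mean of at least 50 counts.

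Of 14 epithelial regulators, 9 were tested and 2 were called, both lower, or 22.2% beside 12.6% of all tested genes. Without the fold minimum 4 fell, 0 rose and 5 did not pass, with a median log2 change of -0.56. Over all tested genes 33.2% fell and 31.5% rose. ESRP1, a splicing regulator of epithelial isoforms, fell from 2.49 ± 0.0980 to 0.572 ± 0.0965 CPM (log2 change -2.11; adjusted p = 5.81e-09, edgeR). KLF4, a Krüppel-like transcription factor of epithelia, fell from 102 ± 0.416 to 34.8 ± 0.205 CPM (log2 change -1.55; adjusted p = 1.51e-20, edgeR). MIR200CHG, the host transcript of microRNAs that target ZEB1 and ZEB2, had 0 counts in every library. A polyadenylated library does not measure the mature microRNAs.

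All 31 mesenchymal genes in the table were tested, and 12 were called, 4 higher and 8 lower, or 38.7%. Over all tested genes the share was 12.6%, with 2.87% higher and 9.68% lower. Without the fold minimum 13 rose, 17 fell and 1 did not pass, beside 31.5% that rose and 33.2% that fell over all tested genes. The median log2 change was -0.31. The matrix genes among them moved in both directions. POSTN, which encodes the matrix protein periostin, rose from 23.3 ± 0.233 to 81.8 ± 0.799 CPM (log2 change 1.81; adjusted p = 1.48e-20, edgeR). The fibronectin and vitronectin receptor subunits ITGA5 and ITGAV rose, from 132 ± 4.28 to 313 ± 12.7 CPM and from 188 ± 0.850 to 430 ± 13.8 CPM, in the same libraries in which FN1 fell. GAS6, a ligand of the AXL receptor, rose from 33.4 ± 0.668 to 68.7 ± 1.76 CPM.

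On the other side, the small proteoglycan gene LUM had 62, 76 and 68 counts in shCTL and 0, 0 and 2 in shPBRM1, at least 26.3-fold lower against the floor of 3 counts per library. DCN, which encodes decorin, fell from 2.23 ± 0.571 to 0.0923 ± 0.0377 CPM. ACTA2, the smooth muscle actin gene, fell from 9.17 ± 0.951 to 1.15 ± 0.0926 CPM (log2 change -3.00; adjusted p = 2.22e-15, edgeR), and MMP2, a gelatinase, from 20.1 ± 0.408 to 3.94 ± 0.271 CPM. The other genes called lower were BGN, PDGFRB, PDGFRA and FAP, with log2 changes of -1.75, -1.66, -1.12 and -1.11. They were named after their values were seen. The call of GAS6 was lost with library size in place of TMM and that of PDGFRA without shCTL replicate 2 or without shPBRM1 replicate 3. That of PDGFRB was lost at an adjusted p under 0.001, and LUM and PDGFRB were not tested at a mean of at least 50 counts. With glmTreat 8 of the 12 were called, 3 higher and 5 lower, without GAS6, FAP, PDGFRA and PDGFRB.

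Of 25 other EMT transcription factors 21 were tested, and 3 were called, all lower, or 14.3%, close to the 12.6% of all tested genes. Without the fold minimum 16 fell, 3 rose and 2 did not pass, with a median log2 change of -0.34. Over all tested genes 33.2% fell and 31.5% rose. PRRX1 and PRRX2, homeobox genes of mesenchyme, fell from 68.3 ± 2.16 to 33.3 ± 1.17 CPM and from 16.2 ± 0.492 to 6.56 ± 0.505 CPM, and TBX2, a T-box repressor, from 0.398 ± 0.0977 to 0.148 ± 0.0741 CPM (log2 change -1.46; adjusted p = 0.0113, edgeR). The call of TBX2 was lost without shCTL replicate 3, without shPBRM1 replicate 3 and at an adjusted p under 0.001, and TBX2 was not tested at a mean of at least 50 counts. With glmTreat, PRRX2 alone of the 3 was called. The 3 that rose, ETS1, HMGA2 and TCF3, which were named after their values were seen, did so by 0.48, 0.59 and 0.25 on the log2 scale.

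Of the 20 genes for cofactors and turnover of SNAIL and ZEB proteins in the table, 19 were tested and 0 were called by edgeR or by DESeq2, with 15 at an unadjusted p under 0.05 in edgeR. Over all tested genes 12.6% were called in edgeR. Without the fold minimum 10 rose, 5 fell and 4 did not pass, beside 31.5% that rose and 33.2% that fell over all tested genes. The median log2 change was 0.18. Named after their values were seen, HDAC1, a deacetylase recruited by SNAIL, rose from 118 ± 2.27 to 183 ± 1.63 CPM (log2 change 0.64), and BTRC, the ubiquitin ligase subunit that recognises phosphorylated SNAIL, rose from 26.4 ± 0.544 to 43.8 ± 1.21 CPM (log2 change 0.73). GSK3B, the kinase that marks SNAIL for this ligase, was at 196 CPM in both groups, with a log2 change of 0.0025 and an adjusted p of 0.956 in edgeR. Protein levels were not measured.

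**Figure D4:**
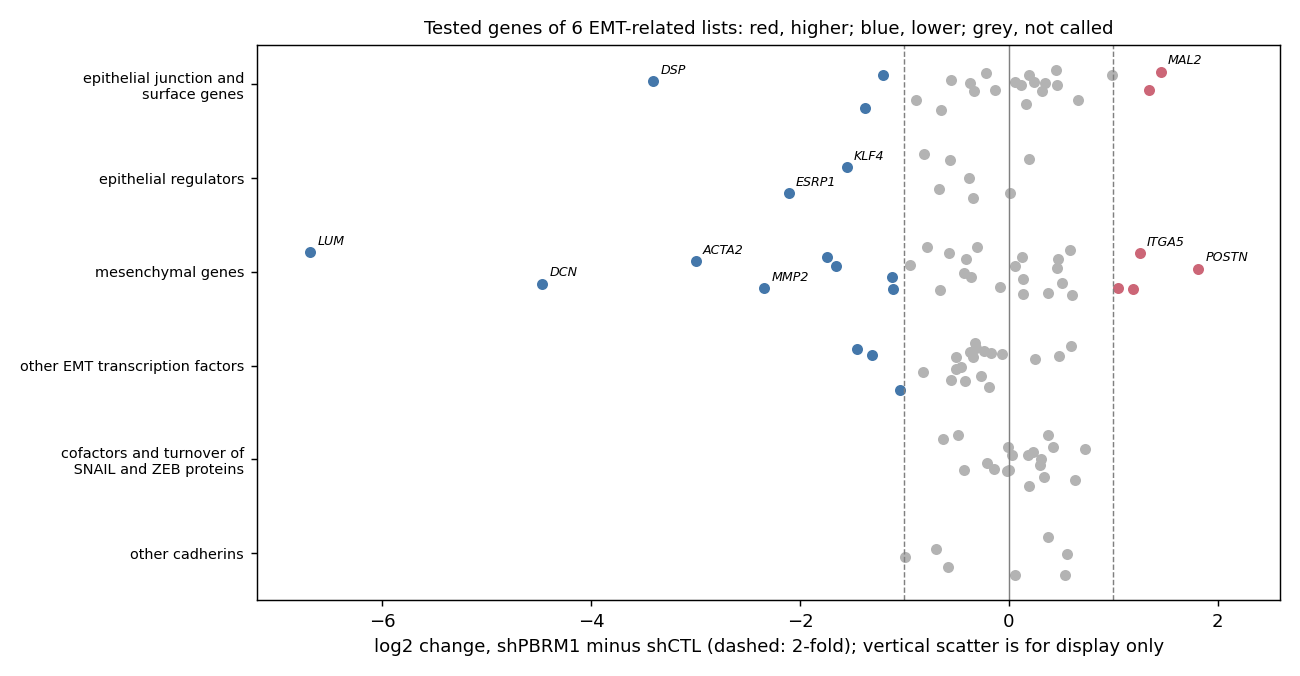
Log2 change (shPBRM1 minus shCTL) of the tested genes of 6 EMT-related lists, each point a gene, red when called higher, blue when called lower and grey when not called; dashed lines mark a 2-fold change, and the fitted value of LUM depends on the prior count because its shPBRM1 libraries hold 0, 0 and 2 counts. Called genes lie on both sides among the epithelial junction and mesenchymal genes and on the lower side only among the epithelial regulators and the other transcription factors.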

How the data were processed

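RNA-seq of 6 BT-549 libraries was analyzed, 3 shCTL and 3 shPBRM1; groups and numbers were taken from the sample titles, and table columns were matched to them by name. The shPBRM1 columns equal their titles apart from a hyphen, but the control columns carry the cell line and a number only and were assigned as those without the shPBRM1 name. The values deposited by the authors are raw read counts, 1 row per symbol. Per the labels the libraries were stranded mRNA libraries (TruSeq), and the submitters' processing notes name CASAVA 1.8.2, STAR 2.7.9a, featureCounts, DESeq2 1.24.0 and GRCh38.p7. The gene annotation and the strand setting of the counting are not given in the sources used here. The table holds 12608 rows without a count and 14 rows with dates in place of symbols, which were kept and not named.

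Counts were fitted with edgeR 4.0.16 in R 4.3.3 (TMM factors, filterByExpr, quasi-likelihood F-test, Benjamini-Hochberg adjustment over 15450 genes), without a replicate block; the study's methods state no design formula. The thresholds of the study, 0.05 for the adjusted p and 2-fold for the change, were used for calls. Each standard error is that of a difference of group means of log2 CPM (prior count 2). The floor of detection was 3 counts; floors cover counting error only. The fitting was tested on simulated data. Figures were drawn with matplotlib 3.10.9. Same-group libraries differed by more than sampling noise (chi-square per degree of freedom 4.92 to 7.35, and 21.5 and 24.9 for the pairs with shPBRM1 replicate 1). Over 5622 genes with a mean log2 CPM above 5, deviations from the group means correlated at 0.734, 0.593 and 0.419 between libraries of the same number and at -0.671 to 0.464 between different numbers, where shCTL 2 with shPBRM1 3 (0.464) exceeded the same-number pair 3. Every same-number value was over 0.1, and the numbers, which come from the sample titles, were used to pair libraries in the replicate block and the differences within numbers. Deviations within a group of 3 are tied to each other, so these values are not independent. They do not settle the pairing of number 3. The p-values given for genes come from the fit without a block unless the block is named.

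Genes named were the 10 members, PBRM1, in each list the genes called (of more than 8, the 4 highest and the 4 lowest), and the 3 genes most like the member with the largest change; other names are said to have been chosen after seeing values. Members and lists were chosen with earlier results of these data known. Alternatives were DESeq2 1.42.0, RLE factors, library size only, no filter, a minimum mean of 50 counts, the replicate block, an adjusted p under 0.001, no fold minimum, glmTreat, and leaving out each library in turn.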

Additional observations from a re-analysis of the deposited data

How the results depend on the processing

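CDH1 and FN1 were the members called under all 14 alternatives at the study's fold minimum or a stricter test, and each of the 9 tested members kept the sign of its change in the 12 fits that give one. CDH1 ranged from -1.91 to -1.57 and FN1 from -1.37 to -1.28 on the log2 scale, TWIST1 from 0.12 to 0.18 with adjusted p up to 0.0113, and SNAI1 from 0.052 to 0.47 with adjusted p from 0.108 to 0.844. Library size in place of TMM moved the median of all genes to -0.0561. Of the 15450 genes 1939 were called; the count was 1211 with a mean of at least 50 counts, 1088 with glmTreat, 1955 with the replicate block and 1960 to 2062 with a library left out. With glmTreat, 3 epithelial junction genes in place of 5 and 1 other EMT transcription factor in place of 3 were called, and 8 mesenchymal genes in place of 12. Of the other cadherins, where 0 were called, DESeq2 called 2, library size only 1, no filter 1 and the replicate block 1 (CDH18, paired by number), and 0 to 1 were called with a library left out, 1 without shCTL replicate 2 or without shPBRM1 replicate 1. The causes were not tested. The block changed no call of a member. CDH1, with 58 to 271 counts, SNAI1, with 32 to 107, and EPCAM, with 0 to 8, are limited most by depth. Groups of 3 were not tested for outlying libraries.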
